A study of Mus musculus with 6 samples.

Results

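The Notch genes examined here were 4 receptors (*Notch1*, *Notch2*, *Notch3* and *Notch4*), 4 ligands (*Jag1*, *Jag2*, *Dll1* and *Dll4*) and 2 target genes (*Hes1* and *Hey1*), chosen by symbol from the 44788 symbols of a bulk RNA-seq count table. All 10 were found and all 10 had enough counts to be tested. The table holds tail tendons of wild-type (WT) C57BL/6 mice and of C57BL/6 mice lacking Mohawk (*Mkx*), a homeobox transcription factor of tendon, with 3 libraries per genotype. The labels name no treatment, and the only difference they give is the genotype, WT or Mkx-/-. The sample labels give an age of 3 weeks, whereas the published description gives an older age. Neither source says which part of *Mkx* is deleted, whether a library came from a single mouse or from pooled mice, or whether replicates are separate animals, so p-values measure the spread between these libraries, which may be technical. The *Mkx*-deficient mouse is known to form ectopic bone in its tendons, and the comparison asks how the transcripts of its tendon differ from WT.

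Notch signaling passes between touching cells. A Jagged or Delta-like ligand on the surface of a cell binds a Notch receptor on its neighbour, ADAM proteases and then gamma-secretase cut the receptor, and the freed intracellular domain enters the nucleus, where it joins the DNA-binding protein Rbpj and Mastermind coactivators and switches on *Hes* and *Hey* genes, which encode transcriptional repressors. The pathway holds back the differentiation of several mesenchymal lineages, including cartilage and bone, and in blood vessels it sets arterial identity in the endothelium and maintains the smooth muscle and pericyte coat.

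The libraries held 10835070 to 14160301 counts, and levels below are normalized CPM, read counts relative to the total of their library after edgeR's TMM factors have adjusted that total for differences in composition. The targeted gene *Mkx* was lower in the mutant, with 138 ± 4.92 CPM in the WT libraries and 45.7 ± 9.68 CPM in those of the mutant (SD, n = 3 each, edgeR adjusted p = 0.00183). Of 6 tendon genes all were present in every library, but they did not all hold their level. *Tnmd* (886 to 1292 CPM over the 6 libraries) and *Fmod* (15622 to 19825 CPM) overlapped between genotypes, *Thbs4* rose by 1.26 on the log2 scale (edgeR adjusted p = 0.0118), and the log2 fold changes were -1.02 for *Col1a2*, -1.14 for *Scx* and -0.68 for *Col1a1*, which passed the threshold in DESeq2 (adjusted p = 4.06e-07, 0.0146 and 0.0493) and not in edgeR (0.0933, 0.106 and 0.287). WT replicate 3 had 301 counts of the Y-linked gene *Ddx3y* and 1 count of *Xist*, a transcript of female cells. The other 5 libraries had 0 counts of *Ddx3y* and 1289 to 1866 of *Xist*. WT replicate 3 was thus male and the others female, so it came from other mice than WT replicates 1 and 2. Sex was not in the model. Mkx-/- replicate 3 stood apart by genes of smooth muscle and arteries, which were singled out after their values were seen. *Cnn1*, a contractile gene of smooth muscle, had 285 counts there and 0 to 2 counts in the other libraries, *Myh11*, the smooth muscle myosin, had 202 CPM against 1.97 to 2.75 CPM, and *Gja5*, a connexin of arterial endothelium, had 50 counts against 0 in the other 5 libraries. Results that rest on this library are therefore given with and without it.

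None of the 10 Notch genes passed an adjusted p of 0.05 in edgeR's quasi-likelihood test, at any fold change (0 higher and 0 lower), where 3.18% of the 14550 genes tested were higher and 2.26% lower (5.44% in all). None was therefore called at that threshold with a 2-fold change, where 1.89% of genes tested were called higher and 1.33% lower (3.22% in all). At an unadjusted p under 0.05, 4 were higher (*Dll4*, *Notch4*, *Notch3* and *Jag2*) and 1 was lower (*Dll1*), against 12.5% and 10.1% of all genes tested (22.6% in all). DESeq2 put 1 of the 10, *Notch3*, past an adjusted p of 0.05, where 4.87% of the genes it tested were higher and 3.58% lower (8.45% in all). With the 2-fold change as well, it called the same gene, against 2.45% higher and 1.74% lower (4.19% in all). It put 4 at an unadjusted p under 0.05, against 18.7% of the genes it tested. In 6 of the 10 the libraries of the genotypes did not overlap, 4 with higher and 2 with lower levels in Mkx-/- tendons, against 14.6% and 13.6% of all genes tested (28.2% in all). The median log2 fold change was 0.35 over the 10 genes, 0.15 without Mkx-/- replicate 3, and -0.0037 over all genes tested. Of the 10 genes, 6 had their highest level in Mkx-/- replicate 3, as did 20.0% of all genes tested.

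**Figure D1:**
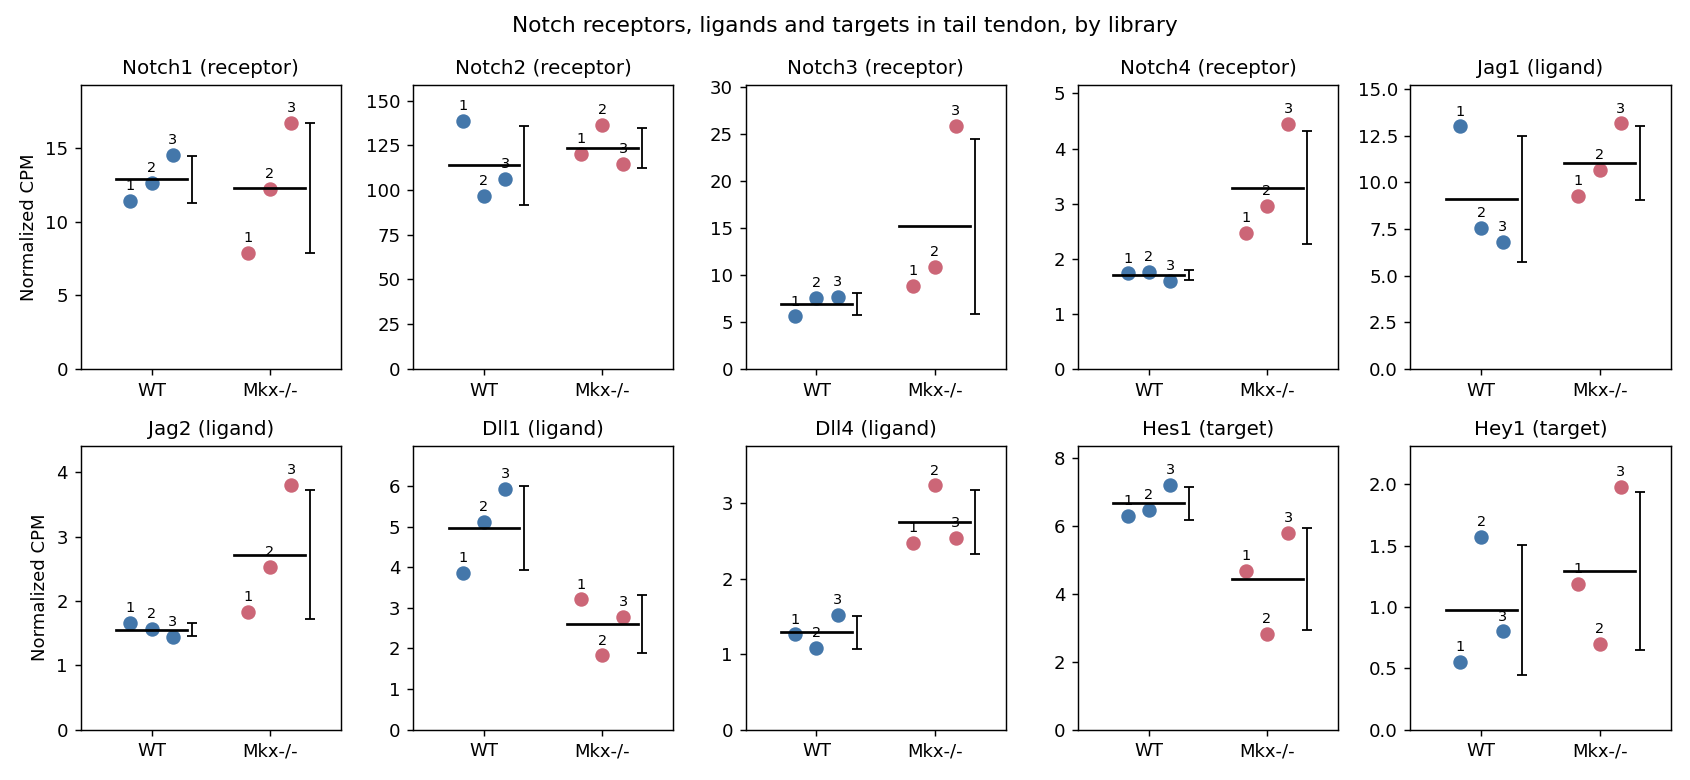
Normalized CPM (vertical axes, each starting at 0) of the 10 Notch genes in the 3 WT and 3 Mkx-/- libraries. Each point is a library with its replicate number, black lines are group means and error bars are the SD. *Dll4* was at 2.47 CPM or more in each Mkx-/- library and at 1.52 CPM or less in each WT library, *Dll1* and *Hes1* lay lower in each Mkx-/- library, and Mkx-/- replicate 3 lay far above the other libraries in *Notch3*.

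Levels of different genes were compared per exonic kilobase, using the union of GENCODE exons on mm9. *Notch2* was the most abundant of the 10 per kilobase in both genotypes, with 10.8 ± 2.11 CPM per kb in the WT libraries and 11.8 ± 1.07 CPM per kb in those of the mutant (SD, n = 3 each), and its libraries did not overlap those of *Hes1*, the next in WT with 3.27 ± 0.236 CPM per kb. *Jag1* (1.57 CPM per kb in WT), *Dll1* (1.18), *Notch1* (0.906), *Notch3* (0.864), *Hey1* (0.442), *Jag2* (0.384), *Dll4* (0.334) and *Notch4* (0.211) followed as WT means. From *Jag1* down to *Dll4* each overlapped the next in that order, whereas *Notch4* lay under *Dll4* in all WT libraries. In Mkx-/- tendons *Dll1* stood at place 8 against 4 in WT, and *Dll4* at place 6 against 9. There each gene from *Hes1* on overlapped the next. Among receptors *Notch2* made up 81.8% to 88.5% of the summed level per kilobase in the WT libraries and 85.4%, 83.4% and 68.8% in Mkx-/- replicates 1 to 3, where *Notch3* took 8.15%, 8.71% and 20.3%. Among ligands *Jag1* made up 35.2% to 57.5% in WT and 46.1% to 50.0% in Mkx-/- libraries.

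**Figure D2:**
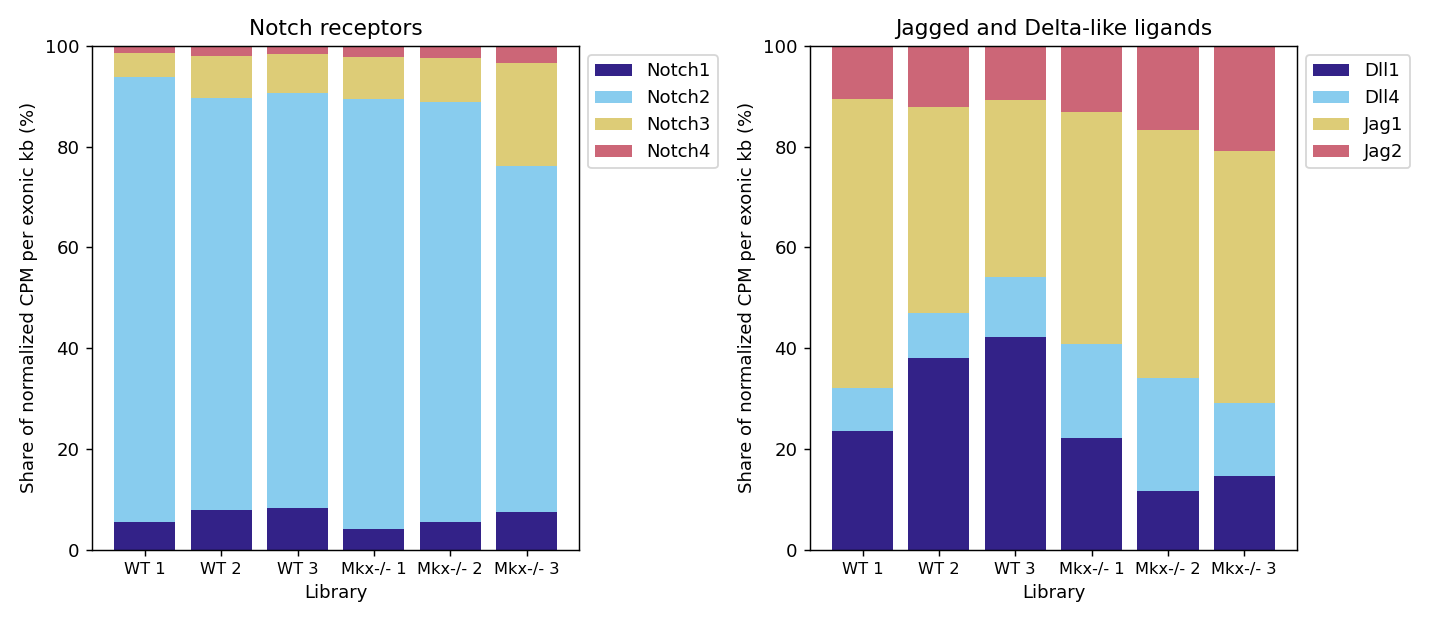
Share of each gene in the summed normalized CPM per exonic kilobase (vertical axes, %) of the 4 receptors (left) and the 4 ligands (right), for each of the 6 libraries. Each bar is a library. *Notch2* filled most of every receptor bar, *Notch3* widened to 20.3% in Mkx-/- replicate 3, and the *Dll1* part of the ligand bars was 11.6% to 22.1% in Mkx-/- against 23.6% to 42.3% in WT libraries.

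Among the receptors, *Notch2*, on chromosome 3 between 97817461 and 97954290 (plus strand, mm9 as for all coordinates here), had 139, 96.5 and 106 CPM in the WT libraries and 120, 136 and 114 CPM in those of the mutant. The genotypes overlapped, and the log2 fold change of 0.12 had a 95% interval of -0.25 to 0.49 (edgeR adjusted p = 0.711), so that changes of 2-fold in either direction lay outside the interval. *Notch1*, on chromosome 2 between 26313423 and 26372183 (minus strand), had 11.4, 12.7 and 14.6 CPM in the WT libraries and 7.88, 12.2 and 16.7 CPM in those of the mutant. The mutant libraries held both the lowest and the highest value, and the log2 fold change was -0.066 with a 95% interval of -0.65 to 0.52 (edgeR adjusted p = 0.912). Its sign turned in 3 of the alternative fits, such as 0.14 without Mkx-/- replicate 1 and 0.21 with scaling by library size only, a scaling that raised the median of all genes tested to 0.25.

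*Notch3*, the receptor typical of vascular smooth muscle and pericytes, lies on chromosome 17 between 32257765 and 32303825 (minus strand). It had 5.59, 7.56 and 7.69 CPM in the WT libraries and 8.79, 10.9 and 25.8 CPM in those of the mutant. The genotypes did not overlap, but replicate 3 of the mutant lay far above the others. The log2 fold change was 1.13 (standard error 0.39, 95% interval 0.24 to 2.02, edgeR adjusted p = 0.129). It was past the threshold in DESeq2 (adjusted p = 0.0416) and with a filter of 1 count in any library (edgeR adjusted p = 0.0189), and its adjusted p ranged from 0.0189 to 0.308 over the alternatives. Without Mkx-/- replicate 3 the log2 fold change was 0.51 (edgeR adjusted p = 0.308). The ratio of *Notch3* to *Notch1* counts, which no scaling changes and which was computed after seeing the values, was 0.490, 0.597 and 0.527 in WT and 1.12, 0.891 and 1.55 in Mkx-/- libraries, without overlap and without a test. *Notch4*, a receptor found mainly in endothelium, lies on chromosome 17 between 34701213 and 34725448 (plus strand). It had 1.73, 1.77 and 1.602 CPM in the WT libraries and 2.47, 2.95 and 4.44 CPM in those of the mutant, without overlap. Its log2 fold change was 0.95 (standard error 0.30, 95% interval 0.27 to 1.63, edgeR adjusted p = 0.102), and 0.68 without Mkx-/- replicate 3 (edgeR adjusted p = 0.312). It passed the threshold with scaling by library size only (edgeR adjusted p = 0.0490). GENCODE places other genes on the opposite strand over *Notch1*, *Notch3* and *Notch4*, and since the treatment of strand is not given in the sources used here, their reads could be included.

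The clearest contrast among the ligands lay between *Dll1* and *Dll4*, Delta-like ligands that differ in where they act, *Dll1* in somites and muscle and *Dll4* in arterial and sprouting endothelium. The bases before the RefSeq transcription start of these genes, and of *Notch3* as the receptor with the largest fold change over all 6 libraries (without Mkx-/- replicate 3 that of *Notch4* is larger), are shown to allow their comparison. The RefSeq table used here has entries for 8 of the 10 genes, and *Hes1* and *Hey1* have none. Each stretch of 250 bases was matched once to mm9, at chr17:15513897-15514146 on the minus strand for the more upstream of the *Dll1* starts, chr2:119151270-119151519 on the plus strand for *Dll4*, and chr17:32303836-32304085 on the minus strand for *Notch3*. All 3 lie before the annotated GENCODE gene, and those of *Dll1* and *Dll4* overlap the genes *A930024N18Rik* and *Gm14207*. Capitals mark the E-box CANNTG, the motif of basic helix-loop-helix factors.
Dll1: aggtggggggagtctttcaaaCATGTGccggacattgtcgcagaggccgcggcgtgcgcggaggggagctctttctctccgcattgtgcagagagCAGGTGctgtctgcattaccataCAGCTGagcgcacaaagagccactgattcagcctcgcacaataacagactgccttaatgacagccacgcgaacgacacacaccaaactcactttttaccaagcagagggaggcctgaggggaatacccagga
Dll4: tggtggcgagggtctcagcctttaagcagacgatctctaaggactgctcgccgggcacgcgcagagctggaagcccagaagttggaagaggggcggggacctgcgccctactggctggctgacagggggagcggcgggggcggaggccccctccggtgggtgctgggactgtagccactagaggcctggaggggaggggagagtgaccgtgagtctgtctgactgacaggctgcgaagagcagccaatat
Notch3: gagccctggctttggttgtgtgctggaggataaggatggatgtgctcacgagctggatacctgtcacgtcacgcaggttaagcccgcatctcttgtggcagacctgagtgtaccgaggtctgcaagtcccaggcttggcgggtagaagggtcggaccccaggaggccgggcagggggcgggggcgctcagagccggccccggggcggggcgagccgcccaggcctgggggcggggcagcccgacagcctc
The *Dll1* stretch held 3 E-boxes and those of *Dll4* and *Notch3* held 0, where 66.2% of the 32851 promoters of the table hold at least 1. The core of the Rbpj motif, TGGGAA, and an ETS core, CCGGAA, were searched on both strands and were in 0 of the 9 entries for the 8 genes, against 21.6% and 12% of all promoters. CANNTG reads the same on both strands, and no match says only that these letters are not in these bases. The share of G and C was 56.0% for *Dll1*, 65.6% for *Dll4* and 68.8% for *Notch3*, with a median of 52.4% over all promoters.

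*Dll1*, on chromosome 17 between 15504318 and 15513836 (minus strand), had 3.86, 5.10 and 5.93 CPM in the WT libraries and 3.21, 1.83 and 2.77 CPM in those of the mutant. Every mutant library lay under every WT library, with the lowest value in replicate 2. Its log2 fold change was -0.94 (standard error 0.28, 95% interval -1.59 to -0.29, edgeR adjusted p = 0.0941), and it stayed lower in all 15 alternative fits, with an adjusted p of 0.0606 to 0.236. *Dll4*, on chromosome 2 between 119151520 and 119161698 (plus strand), had 1.26, 1.08 and 1.52 CPM in the WT libraries and 2.47, 3.23 and 2.54 CPM in those of the mutant. Every mutant library lay above every WT library, and Mkx-/- replicate 3 was not the highest. Its log2 fold change was 1.08 (standard error 0.28, 95% interval 0.44 to 1.73), with the smallest adjusted p of the 10 genes (edgeR, 0.0665). It was higher in all 15 alternative fits and past the threshold in 2 of them, with scaling by library size only and with a filter of 10 counts in every library (edgeR adjusted p = 0.0309 and 0.0443, within a range of 0.0309 to 0.198). Without Mkx-/- replicate 3 it was 1.14 (edgeR adjusted p = 0.145). The gene *Gm14207*, which overlaps *Dll4* on the opposite strand, had 0 to 2 counts per library. *A930024N18Rik* overlaps *Dll1* on the opposite strand, and its reads could be included in the *Dll1* counts used here and below.

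The ratio of *Dll1* to *Dll4* counts within a library does not depend on scaling. It was 3.06, 4.73 and 3.89 in the WT and 1.30, 0.565 and 1.09 in the Mkx-/- libraries. *Dll1* thus outnumbered *Dll4* in each WT library by more than 3 to 1. The genotypes did not overlap, which had to be so, because *Dll1* lay lower and *Dll4* higher in every mutant library. Of the counts on both genes, *Dll1* took 75.4%, 82.5% and 79.6% in WT (exact binomial 95% intervals 63.1% to 85.2%, 70.9% to 90.9% and 69.9% to 87.2%). In Mkx-/- libraries it took 56.5%, 36.1% and 52.2% (43.3% to 69.0%, 25.1% to 48.3% and 39.7% to 64.6%). The intervals cover counting error only. The mean log2 ratio was 1.94 in the WT libraries and -0.11 in those of the mutant, a difference of -2.05 that lay between -2.29 and -1.69 when each library was left out. The sign of this difference could not turn with any library left out, for the same reason. This ratio was chosen after its values were seen and is given without a test.

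*Jag1*, a ligand made by many mesenchymal and vascular cells, lies on chromosome 2 between 136907192 and 136942380 (minus strand). It had 13, 7.56 and 6.81 CPM in the WT libraries and 9.25, 10.7 and 13.2 CPM in those of the mutant. WT replicate 1 lay among the mutant libraries, and the log2 fold change of 0.27 (95% interval -0.33 to 0.87, edgeR adjusted p = 0.596) was 0.62 without that library (edgeR adjusted p = 0.111). *Jag2*, the second Jagged ligand, on chromosome 12 between 114146801 and 114167706 (minus strand), had 1.65, 1.57 and 1.44 CPM in the WT libraries and 1.83, 2.53 and 3.81 CPM in those of the mutant. The genotypes did not overlap, although Mkx-/- replicate 1 was close to the WT libraries. The log2 fold change was 0.81 (95% interval 0.054 to 1.56, edgeR adjusted p = 0.192), and 0.49 without Mkx-/- replicate 3 (edgeR adjusted p = 0.526).

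Of the targets, *Hes1*, a repressor induced by Notch and by other signals, lies on chromosome 16 between 30064470 and 30067882 (plus strand). It had 6.30, 6.48 and 7.21 CPM in the WT libraries and 4.67, 2.81 and 5.79 CPM in those of the mutant. The WT libraries were close to each other, and every mutant library lay under them. The log2 fold change was -0.60 (standard error 0.27, 95% interval -1.21 to 0.013, edgeR adjusted p = 0.231). It was lower in all 15 alternative fits, between -0.85 without Mkx-/- replicate 3 and -0.34 with scaling by library size only, and past the threshold in 0 of them. *Hey1*, a repressor of the Hey family prominent in endothelium, lies on chromosome 3 between 8663362 and 8667039 (minus strand) and was counted only 7, 16 and 10 times in WT and 13, 10 and 25 times in Mkx-/- libraries. Its levels of 0.551, 1.57 and 0.801 CPM in the WT libraries and 1.19, 0.703 and 1.98 CPM in those of the mutant overlapped. The log2 fold change of 0.43 had a 95% interval of -0.77 to 1.62 (edgeR adjusted p = 0.683) and was -0.034 without Mkx-/- replicate 3, and an interval this wide holds both a 2-fold increase and no change at this depth.

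The other genes of the pathway were taken from lists of 53 genes sorted by role, of which 43 had enough counts to test in edgeR. None passed an adjusted p of 0.05 in edgeR, against 5.44% of all genes tested. At an unadjusted p under 0.05, 4 were higher (*Dlk1*, *Heyl*, *Maml2* and *Rbpj*) and 2 lower (*Ctbp2* and *Dtx4*). The shares over all genes tested were 12.5% and 10.1% (22.6% in all). DESeq2 put 1, *Dlk1*, past an adjusted p of 0.05, against 8.45% of the genes it tested. The median log2 fold change of the 43 was -0.023, against -0.0037 over all genes tested, and 38 of the 43 lay within 0.5 of 0. Of the role lists with 5 or more tested genes, the proteases that cut the receptors had the narrowest range of fold changes. All 9 ADAM and gamma-secretase genes overlapped between genotypes, with log2 fold changes of -0.26 to 0.35. Nicastrin (*Ncstn*), the most abundant, had 109 ± 8.21 CPM in the WT libraries and 107 ± 8.42 CPM in those of the mutant, and *Aph1a*, with the smallest p, had 29.8 ± 3.23 and 25.1 ± 2.14 CPM (SD, n = 3 each, edgeR adjusted p = 0.313). The sign of both turned with scaling by library size only.

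Of 14 genes of the nuclear complex and its corepressors, 7 had fold changes above 0 and 7 below 0. *Rbpj*, the DNA-binding partner of every Notch receptor, had 36.3, 27.5 and 35.1 CPM in the WT libraries and 44.8, 41.0 and 39.0 CPM in those of the mutant. Its mutant libraries all lay above WT, by a log2 fold change of 0.33 (95% interval 0.012 to 0.66, edgeR adjusted p = 0.204). *Maml2*, a Mastermind coactivator, had a log2 fold change of 0.62 and *Ctbp2*, a corepressor, one of -0.42 (edgeR adjusted p = 0.185 and 0.121). In the 12 tested genes of ligand and receptor endocytosis and ubiquitination, the smallest p was that of *Dtx4*, a Deltex ubiquitin ligase, with 24.5 ± 3.61 CPM in the WT libraries and 18.1 ± 2.62 CPM in those of the mutant (SD, n = 3 each, edgeR adjusted p = 0.149). *Dtx3* was the most abundant there, with 149 ± 24.5 and 134 ± 15.2 CPM, and its sign turned with scaling by library size only. Among 5 genes of receptor glycosylation, *Lfng*, which encodes the Lunatic fringe enzyme that tunes the choice between Delta-like and Jagged ligands, had 4.18, 5.10 and 4.17 CPM in the WT libraries and 3.94, 7.38 and 8.17 CPM in those of the mutant (log2 fold change 0.55, edgeR adjusted p = 0.300). *Pofut1*, which fucosylates the receptors, overlapped as well (edgeR adjusted p = 0.781).

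**Figure D3:**
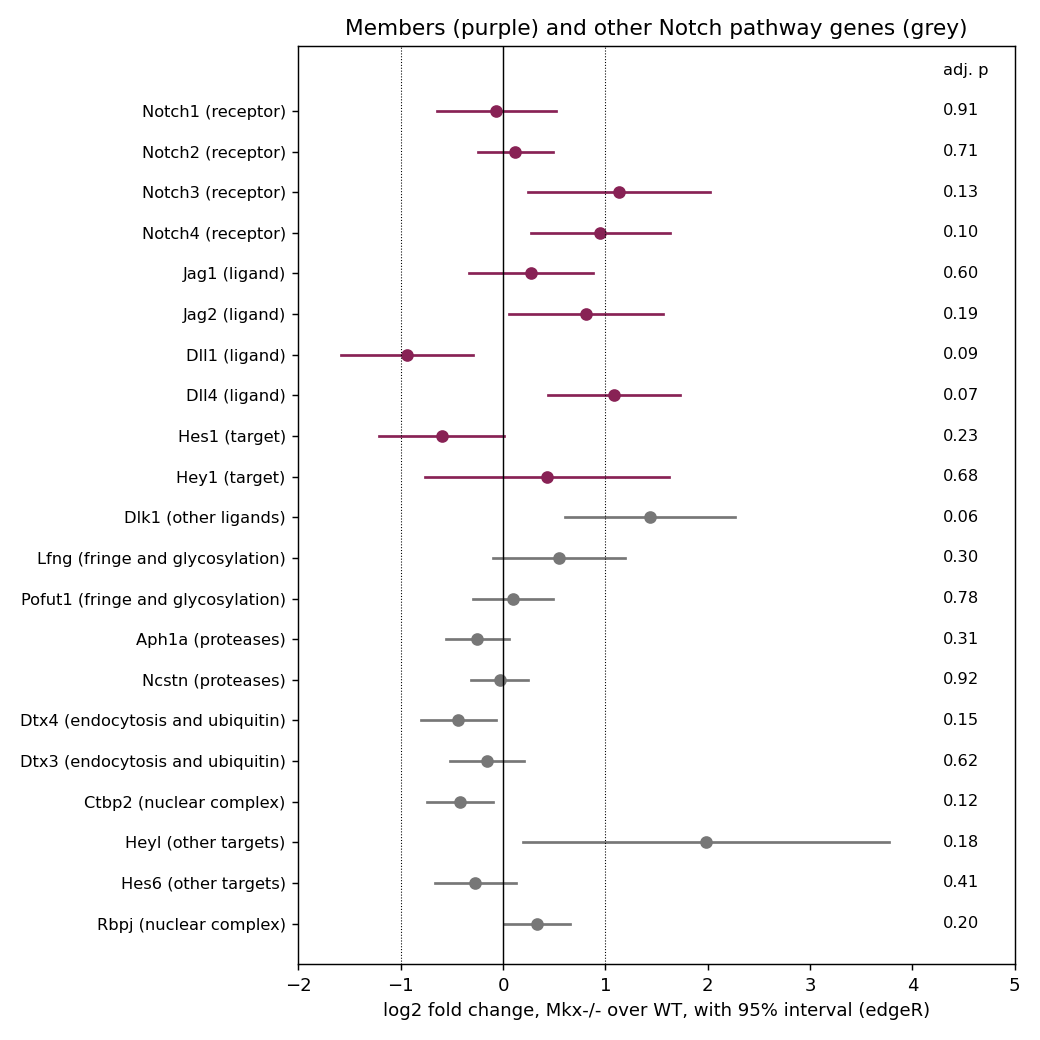
Log2 fold changes of Mkx-/- over WT tendons (horizontal axis) with 95% intervals from edgeR, for the 10 Notch genes (purple) and the other pathway genes that the naming rule picked (grey), with adjusted p at the right. Dotted lines mark a 2-fold change. Of the genes drawn, the intervals of *Notch3*, *Notch4*, *Jag2*, *Dll4*, *Dlk1*, *Heyl* and *Rbpj* lay above 0 and those of *Dll1*, *Dtx4* and *Ctbp2* under 0, and no adjusted p was under 0.05.

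*Dlk1*, a Delta-like protein without the domain that activates Notch, had 2.68, 4.22 and 4.81 CPM in the WT libraries and 5.77, 10.8 and 14.98 CPM in those of the mutant. The genotypes did not overlap, and the log2 fold change of 1.44 (95% interval 0.61 to 2.27) missed the threshold in edgeR (adjusted p = 0.0597) and passed it in DESeq2 (adjusted p = 0.00426). The p-value adjusted over all genes lay between 0.00322 and 0.175 in the alternatives. Without Mkx-/- replicate 3 the log2 fold change was 1.10 (edgeR adjusted p = 0.175). Among further targets, *Heyl*, a Hey-family gene of vascular smooth muscle, had 1.02, 0.883 and 0.801 CPM in the WT libraries and 0.733, 1.97 and 8.09 CPM in those of the mutant. Mkx-/- replicate 1 lay under all WT libraries and replicate 3 far above every other, so the log2 fold change of 1.99 (95% interval 0.20 to 3.77, edgeR adjusted p = 0.178) dropped to 0.61 without replicate 3 (edgeR adjusted p = 0.613). *Hey2*, which acts in arterial endothelium, had too few counts to test, with 7, 1 and 2 counts in WT and 12, 10 and 17 counts in Mkx-/- libraries. *Nrarp*, a feedback inhibitor of Notch, had 10, 7 and 7 counts in WT and 3, 14 and 21 counts in Mkx-/- libraries. *Hes6*, the most abundant gene in the list of further targets, had 13.03 ± 2.59 CPM in the WT libraries and 10.8 ± 0.251 CPM in those of the mutant (SD, n = 3 each, edgeR adjusted p = 0.411). Whether Notch controls *Hes6* in tendon was not tested. *Hes3*, *Hes5* and *Dll3* had 0 counts in every library.

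Markers of other cells moved with several of these genes. Of 10 mural genes, which mark smooth muscle and pericytes, 8 had their highest level in Mkx-/- replicate 3, and their summed level was 348 to 410 CPM in WT and 325, 360 and 1152 CPM in Mkx-/- replicates 1 to 3. *Pdgfrb*, the most abundant of them by count in WT, was present in every library. *Notch3* and *Heyl* were highest with this list in replicate 3. In replicates 1 and 2 *Notch3* was above WT and the summed mural level was within or under the WT range. Of the 9 mural genes tested, 2 lay above WT in every Mkx-/- library, against 14.6% of all genes tested, and 7 overlapped. The part of the mural markers in the *Notch3* and *Heyl* results was not tested. Of 17 endothelial genes, 15 had fold changes above 0, against 7208 of the 14550 genes tested. At the adjusted threshold 2 were higher, against 3.18% of all genes tested. These were *Erg*, by 2.12 on the log2 scale, and *Ecscr*, by 1.43 (edgeR adjusted p = 0.00195 and 0.00227). None of the 17 was at 0 in all libraries. Their summed level was 103 to 133 CPM in WT and 184, 191 and 242 CPM in Mkx-/- libraries, without overlap. *Notch3*, *Notch4*, *Jag2* and *Dll4* were higher without overlap as well, and so were the Schwann cell and skeletal muscle sums given below. Of the 5 arterial genes, *Gja5* was at 0 in 5 libraries, and the sum was 7.72 to 15.5 CPM in WT and 9.71, 8.85 and 23.1 CPM in Mkx-/- libraries. In a bulk sample more cells of a type cannot be told apart from more RNA per cell.

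Skeletal muscle genes followed another order, with 16 of 17 above 0 in fold change and 5 past the adjusted threshold (*Tnnt3*, *Tnni2*, *Tnnc2*, *Tcap* and *Casq1*, edgeR adjusted p between 0.0287 and 0.0417). The sum of 17 muscle genes was 107 to 463 CPM in WT and 3349, 1604 and 629 CPM in Mkx-/- replicates 1 to 3, highest where *Notch3*, *Notch4*, *Jag2* and *Dlk1* were lowest among the mutant libraries. The sum of 9 Schwann cell genes, the glia of peripheral nerve, was 6189 to 8501 CPM in WT and 9947, 16244 and 18506 CPM in Mkx-/- replicates 1 to 3. *Notch1*, *Notch3*, *Notch4*, *Jag1*, *Jag2* and *Dlk1* had the same order in the mutant libraries, and so did the mural and endothelial sums. All 9 Schwann cell genes had fold changes above 0. None passed the adjusted threshold in edgeR (smallest adjusted p = 0.0576). In DESeq2 all 9 passed it (adjusted p = 0.0011 for *Mbp* to 0.0228 for *S100b*), where 4.87% of the genes it tested were higher. The sum of 9 leukocyte genes was 446 to 489 CPM in WT and 289 to 347 CPM in Mkx-/- libraries, lower without overlap, as were *Dll1* and *Hes1*, and 2 of them fell past the threshold (*Csf1r* and *Emr1*, edgeR adjusted p = 0.0173 and 0.00921). Epidermal genes summed to 11.3 to 23.9 CPM in WT and 16.2 to 23.3 CPM in Mkx-/- libraries, but this sum hid opposite changes. *Krt5* (mean 1.16 CPM in WT, 6.13 CPM in Mkx-/- libraries) and *Krt14* (1.01 and 3.53 CPM) were higher without overlap. *Trp63*, the most abundant of the list in WT (15.5 and 7.66 CPM), was lower without overlap, and *Krt10* overlapped. The smallest edgeR adjusted p of the list was 0.0990, that of *Krt5*. Only with DESeq2 were *Trp63* (adjusted p = 0.0324) and *Krt14* (0.0483) past the threshold. Of the 5 satellite cell genes of muscle, *Calcr* was at 0 in all libraries and the sums were 0.491 to 1.43 CPM. The 5 cartilage genes summed to 534 to 1064 CPM in WT and 740 to 1236 CPM in Mkx-/- libraries, and *Acan* and *Matn3* rose (edgeR adjusted p = 0.0038 and 0.00181). The part of these cell types in the Notch results was not tested. Of the 14550 genes tested, 7208 had fold changes above 0, and 3.18% passed the adjusted threshold higher and 2.26% lower.

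**Figure D4:**
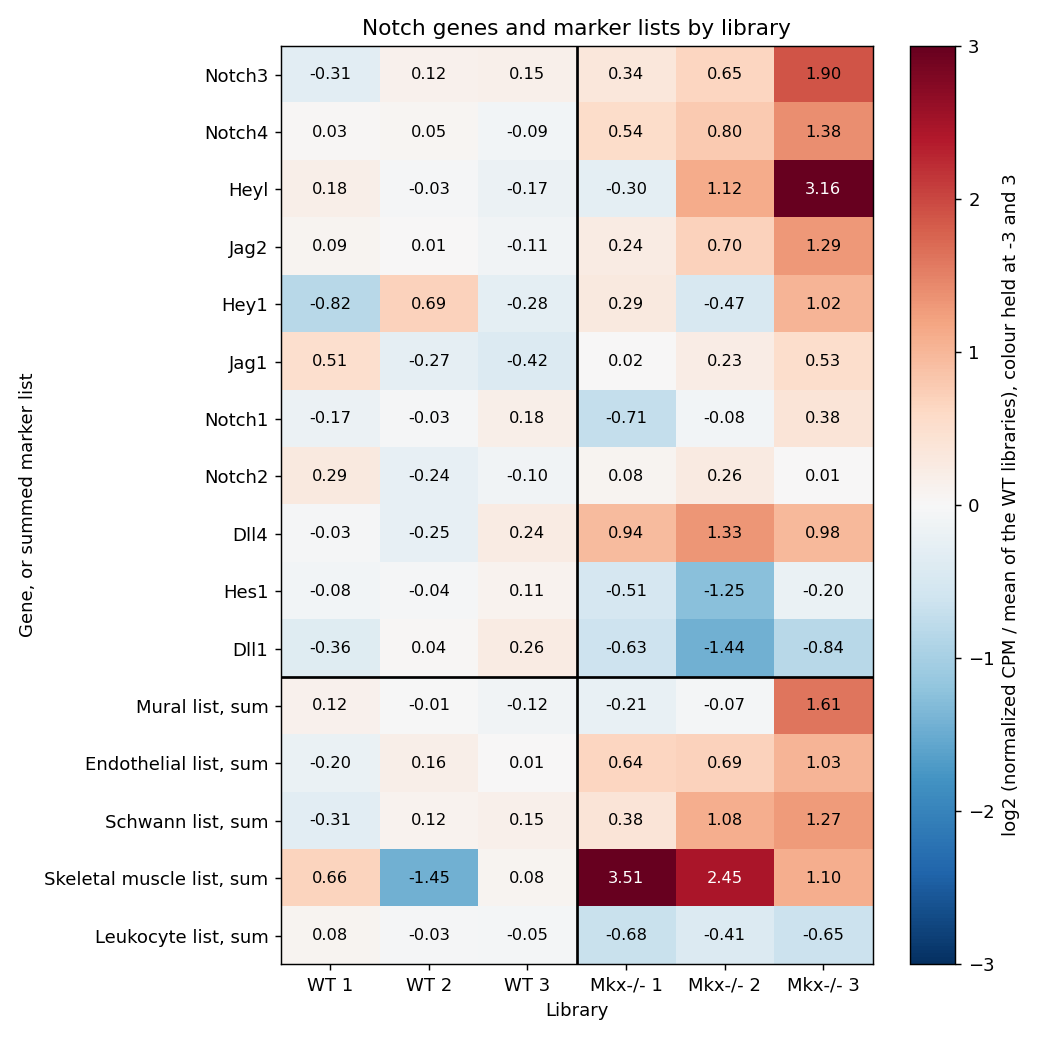
Log2 of the normalized CPM in each library over the mean of the WT libraries, for the 10 Notch genes and *Heyl* (upper rows) and for summed marker lists (lower rows). Columns are libraries, and colour is held at -3 and 3. Mkx-/- replicate 3 was highest in *Heyl* (3.16), *Notch3* (1.90) and the mural list (1.61), whereas *Dll4* was 0.94, 1.33 and 0.98 and *Dll1* -0.63, -1.44 and -0.84 in the Mkx-/- libraries.

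The weight of each library is shown by the fits that leave it out. The fold changes of *Dll4* (0.95 to 1.21), *Dll1* (-1.13 to -0.73) and *Hes1* (-0.85 to -0.35) kept their direction, whichever library was left out. So did those of *Notch2*, *Notch3*, *Notch4*, *Jag1*, *Jag2* and *Heyl*, and of the 10 genes only *Notch1* and *Hey1* changed sign. Without Mkx-/- replicate 3, *Dll4*, *Dll1* and *Hes1* were the 3 of 10 genes at an unadjusted p under 0.05, where 16.8% of the genes tested in that fit were. None passed the adjusted threshold there (edgeR adjusted p = 0.145, 0.205 and 0.184). *Notch3*, *Notch4*, *Jag2*, *Hey1* and *Heyl* had their lowest fold change in that fit, and *Hey1* changed sign there.

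**Figure D5:**
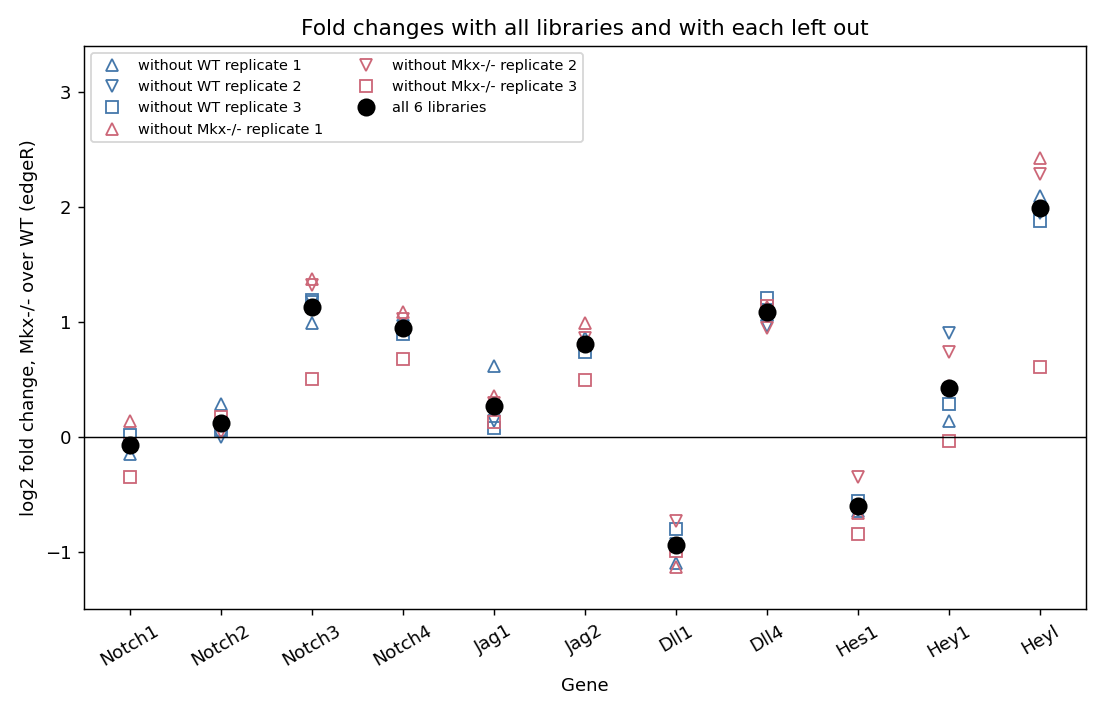
Log2 fold changes of Mkx-/- over WT from edgeR (vertical axis) for the 10 Notch genes and *Heyl*, with all 6 libraries (black) and with each library left out (open symbols). Leaving out Mkx-/- replicate 3 (red squares) lowered *Notch3* from 1.13 to 0.51 and *Heyl* from 1.99 to 0.61, and left *Dll4* at 1.14.

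The genes whose profile over the 6 libraries was most like that of a Notch gene were sought for the 3 members that varied most in log2 CPM among those averaging 5 CPM or more. Likeness was the root mean square difference between profiles of log2 CPM, each centred on its own mean, over 10294 genes averaging 5 CPM or more (2 counts added before the log). For *Notch3* the closest were *Cdh5*, the endothelial cadherin (0.13), and *Fam212b* (0.13), against a median of 0.72. *Cdh5* had 4.88, 8.44 and 6.81 CPM in the WT libraries and 8.88, 10.47 and 22.4 CPM in those of the mutant, again highest in replicate 3. For *Hes1* they were *Ptgfr*, the receptor of prostaglandin F (0.088), and *Rpsa-ps9* (0.13), a pseudogene whose reads could come from its parent gene. For *Jag1* they were *Hspa4l* (0.093) and *Pde5a* (0.10).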

How the data were processed

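Tail tendon RNA of WT and Mkx-/- mice, in 3 libraries per genotype, was sequenced on the Ion Proton system. The authors removed adaptors and low-quality reads, aligned to mm9 with MapSplice, and deposited a table of unnormalized read counts by gene symbol. The counting program, its annotation and how it handled strand and multiply matching reads are not given in the sources used here. Depth was 10835070 to 14160301 counts per library, so that a gene at 1 CPM has about 10 counts and a large counting error.

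Counts were analysed with edgeR 4.0.16 in R 4.3.3 (TMM, filterByExpr, quasi-likelihood fit on genotype alone, Benjamini-Hochberg adjustment over the 14550 genes tested). Thresholds were an adjusted p under 0.05, and for calls also a log2 fold change above 1 or below -1. Intervals use the fold change, its standard error and the degrees of freedom of the fit. DESeq2 1.42.0 was an alternative. Both were tested on simulated data with changes larger than those of the 10 genes, so that test does not say whether changes of their size would be found. The other alternatives were RLE, upper-quartile and library-size scaling, a lenient filter (1 count in at least 1 library), a strict filter (10 counts in each), a robust fit, removal of muscle genes, a replicate block, and each library left out. The leave-one-out values of the *Dll1* to *Dll4* ratio were added after seeing the data. All 6 columns were matched to samples by label. Between replicate libraries chi-square per degree of freedom was 7.59 to 36.4, so none was merely the same library read again. These values cannot tell whether libraries were made from the same RNA.

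The 10 genes, the pathway lists and the cell type lists were chosen with earlier results of these data known. The text names the 10 genes, of each pathway list those past an adjusted p of 0.05 or else that with the smallest p and the most abundant, *Rbpj*, *Lfng*, *Heyl*, *Hey2* and *Nrarp* in any case, and of each cell type list those past the threshold and at most the 3 most abundant. A gene that this rule names is not reported here. *Maml2*, *Cnn1*, *Myh11*, *Gja5*, the single epidermal genes and genes at 0 were named after their values were seen. With 3 libraries per genotype an exact permutation test cannot give a two-sided p under 0.1, so none was used. Coordinates are those of GENCODE vM1 on mm9. Promoter bases come from RefSeq's annotation of GRCm38.p6 and were placed by exact match on mm9.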

Additional observations from a re-analysis of the deposited data

How the results depend on the processing

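None of the single genes passed the adjusted threshold, so none could lose it. Of their alternative values 291 kept direction and stayed short of it, 11 passed it and 11 changed sign. The Notch genes called higher, and those past the adjusted threshold, numbered 0 in edgeR, 1 with DESeq2, 2 with library-size scaling, 1 with the 1-count filter and 1 with the 10-count filter. These were *Notch3* with DESeq2 (log2 fold change 1.12) and the 1-count filter (1.14), *Notch4* with library-size scaling (1.21), and *Dll4* with library-size scaling (1.34) and the 10-count filter (1.09). Other passes were those of *Dlk1* in 5 fits and *Heyl* in 1. With library-size scaling, which moved the median of all genes tested from -0.0037 to 0.25, the sign turned for *Notch1* (0.21), *Aph1a* (0.0066), *Ncstn* (0.23) and *Dtx3* (0.11). With a library left out, the range crossed 0 for *Notch1* (-0.35 to 0.14), *Hey1* (-0.034 to 0.90), *Pofut1* (-0.041 to 0.22) and *Ncstn* (-0.089 to 0.035). *Hey1* and *Heyl* did not pass the 10-count filter. The cause of these changes was not tested.

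Over all genes, 275 were called higher and 193 lower. Library-size scaling called 711 higher, and the 1-count filter 541 higher and 322 lower. Leaving out a library gave 103 to 321 higher and 112 to 248 lower, with the lowest numbers without WT replicate 3. At any fold, 463 were higher and 329 lower, against 768 and 565 with DESeq2, 1358 and 197 with library-size scaling, 970 and 594 with the 1-count filter, and 117 to 539 and 127 to 439 with a library left out. With the replicate number as a block (replicate block) these were 264 and 170, with 0 Notch genes, and of the single genes only *Dlk1* changed its call (adjusted p = 0.0289). The deviations of same-numbered libraries from their genotype means correlated with r of 0.026, -0.21 and 0.30. Deviations within a genotype depend on each other, so these values cannot show whether same-numbered libraries were handled together. Depth limits *Hey1*, *Jag2*, *Dll4* and *Notch4*, with counts of 7 to 56.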
